A study of Mus musculus with 4 samples.

Results

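Aminoacyl-tRNA synthetases are the enzymes that join each amino acid to its tRNA, the step that supplies ribosomes with charged tRNA. Here 38 genes were followed by their symbols among the 24346 genes of the deposited tables: 20 genes of cytosolic synthetases, 16 of mitochondrial synthetases, whose symbols end in 2, and *Aimp1* and *Aimp2*, which encode scaffold proteins of the cytosolic multi-synthetase complex. All 38 were found under the older symbols, and all 38 passed the filter on low values. They were measured in *in vitro* MDSCs, myeloid-derived suppressor cells obtained from bone marrow (BM) of C57BL/6J mice. The BM cells were kept for 4 days in medium containing 40 ng/ml GM-CSF. Both groups received GM-CSF: 2 cultures had no other cytokine (Control), and 2 had 5 ng/ml G-CSF added (G-CSF). The study's methods give female mice aged 6 to 8 weeks. The study describes the 2 libraries of each group as biological replicates, and no source used here says whether they came from separate animals, so the p-values measure the spread between these libraries, which may be technical. No sort of the cells before RNA sequencing is stated, so each library averages over all cells present, and a change in the makeup of a culture cannot be told apart from a change of RNA within its cells.

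In the cytosol and in mitochondria, separate sets of ribosomes draw on separate pools of charged tRNA. Most mitochondrial synthetases have their own nuclear gene, while *Gars* and *Kars* encode the glycyl- and lysyl-tRNA synthetases of both compartments, and *Eprs* joins the glutamyl and prolyl enzymes in a single cytosolic protein. Several cytosolic enzymes (those of *Eprs*, *Iars*, *Lars*, *Mars*, *Qars*, *Rars*, *Kars* and *Dars*) are held together by scaffold proteins in a multi-synthetase complex, and the others act outside it. Expression of many cytosolic synthetase genes is known to respond to the transcription factor ATF4, which is induced when amino acids or charged tRNA run short.

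The values were FPKM (fragments divided by transcript length and by the number of mapped reads), so levels can be compared between genes. From the steps between the lowest values, the libraries held about 13.4 M and 14.2 M mapped reads in Control and 12.5 M and 15.7 M with G-CSF, which put between 24 and 11557 estimated reads on each of the 38 genes in each library. G-CSF was compared with Control by limma on log2(FPKM + 0.1), and genes with an adjusted p under 0.05 over all 11952 genes tested were called. Myeloid markers were high in every library (summed 48170 to 69990 FPKM over 7 genes, mainly *S100a8* and *S100a9*), and 5 of these 7 were lower with G-CSF. The extract protocol in the labels speaks of liver tissue, but all 6 liver markers examined, albumin (*Alb*) among them, were listed at 0 in every library. All 4 markers of the primary granules of neutrophil precursors that were in the tables were higher with G-CSF (summed 812 and 688 FPKM against 1882 and 1770 FPKM), as were all 6 proliferation markers (437 and 443 against 563 and 539 FPKM). In the opposite direction, 3 of 6 dendritic cell markers (summed 725 and 616 against 415 and 323 FPKM), 4 of 5 macrophage markers tested (165 and 190 against 121 and 139 FPKM) and 3 of 4 mast cell and basophil markers tested (79.1 and 79.3 against 51.1 and 55.5 FPKM) were lower. Beside these counts, 12.6% of all genes tested were called higher and 11.4% lower. T cell, B cell and erythroid markers summed to at most 5.51 FPKM. The part of these shifts in the results that follow was not tested.

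With G-CSF, 19 of the 20 cytosolic synthetase genes rose, against 12.6% of all genes tested that were called higher, and none fell. The median log2 fold change of the 20 genes was 0.34, against 0.00 over all genes tested, and the single changes were modest, from 0.09 for *Sars* to 0.46 for *Dars*. In 19 genes both G-CSF values lay above both Control values, as they did in 33.7% of all genes tested. Of the mitochondrial synthetase genes, 3 of 16 rose (*Iars2*, *Tars2* and *Yars2*), with a median of 0.20, and 11 of 16 had both G-CSF values above both Control values. *Iars2* was the nearest to the threshold, and 2 of 16 were called with upper-quartile or median-ratio scaling, under which its adjusted p was 0.0645 and 0.0517. Both scaffold genes rose. Among the 38 genes 0 were called lower with limma, where 11.4% of all genes were, 0 had a lower value at an unadjusted p under 0.05, and 0 were called lower by limma's voom on estimated reads. A limma fit blocked by replicate number called 1 lower, *Lars2*, whose values are given with the mitochondrial genes.

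**Figure D1:**
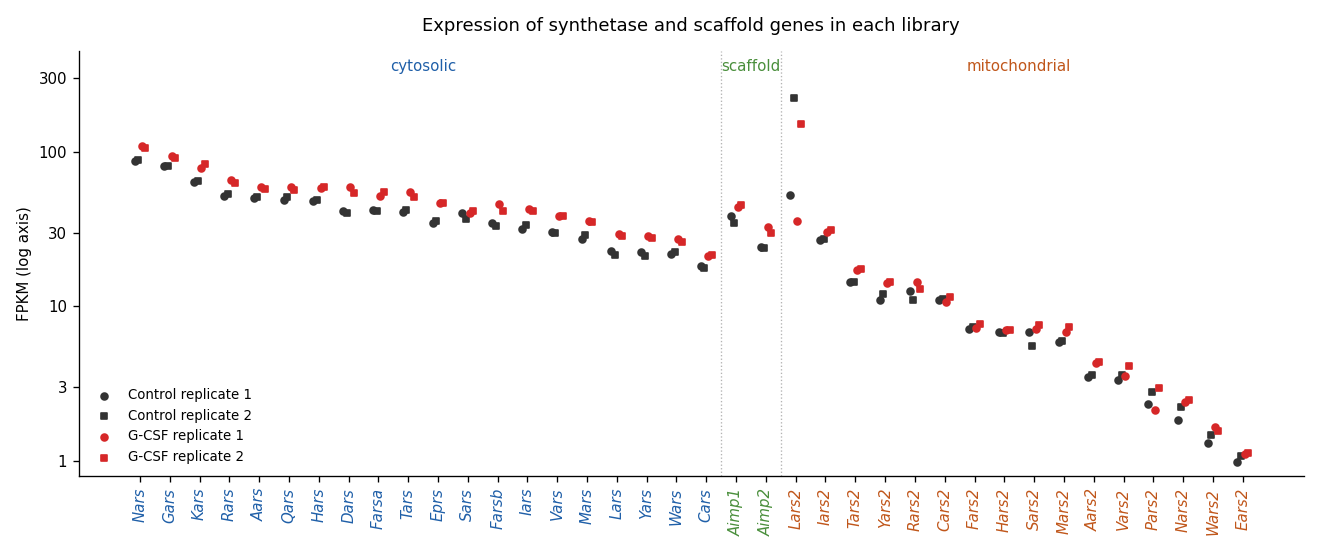
FPKM of the 38 genes (log axis) in the 2 Control libraries (black) and the 2 G-CSF libraries (red), with circles for replicate 1 and squares for replicate 2, ordered by mean level within each class. In 19 of the 20 cytosolic genes both red points stand above both black points. *Lars2* is split mainly by replicate number, and within each number its red point lies below its black point.

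None of these changes reached the fold change of 2 that the study required besides an adjusted p under 0.05. In the limma fit used here, that rule called 0.544% of all genes higher and 0.895% lower, shares that are not the study's own. By that rule 0 of the 38 genes were called, 0 had a fold change over 2 at an unadjusted p under 0.05, and 0 had one with voom. The calls given here therefore rest on the adjusted p alone. Among the 1509 genes called higher, 320 had a larger log2 fold change than *Dars*, and the median over all 1509 was 0.32.

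Cytosolic levels ranged from a mean of 19.6 FPKM over the 4 libraries for *Cars* to 97.3 FPKM for *Nars*, the gene of asparaginyl-tRNA synthetase. After *Nars* came *Gars*, *Kars*, *Rars* and *Aars*. Summed over the 20 genes, the libraries held 837 and 841 FPKM in Control and 1045 and 1023 FPKM with G-CSF. The groups did not overlap in this sum, and the replicates of a group lay far closer to each other than the groups did.

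Within the multi-synthetase complex, all 8 enzymes and both scaffolds rose, against 12.6% of all genes tested that were called higher. The median log2 fold change over the 10 genes was 0.36, with a range from 0.21 to 0.46. *Dars*, the aspartyl-tRNA synthetase gene on chromosome 1 of GRCm38 (128363707 to 128417368, minus strand), stood at 41.5 and 40.2 FPKM in Control and at 58.7 and 53.9 FPKM with G-CSF. Its rise was the largest of the 38, at 0.46 on the log2 scale with a standard error of 0.0574 (adjusted p = 0.0053, limma). *Eprs*, also on chromosome 1 (185363044 to 185428360, plus strand), had 34.8 and 35.8 FPKM in Control and 46.8 and 46.6 FPKM with G-CSF. Its replicates were close to each other, and it had the smallest p of the 38 genes (log2 fold change 0.40, standard error 0.0475, adjusted p = 0.00505). *Lars*, the leucyl-tRNA synthetase gene, went from 22.7 and 21.4 to 29.2 and 28.4 FPKM, a log2 fold change of 0.38 (adjusted p = 0.00802). *Iars*, for isoleucine, went from 31.5 and 33.6 to 42.8 and 41.3 FPKM, a log2 fold change of 0.37 (adjusted p = 0.00812). *Kars*, for lysine, stood higher, at 63.4 and 64.5 FPKM in Control and 78.8 and 83.5 FPKM with G-CSF (log2 fold change 0.34, adjusted p = 0.00694). In each of these genes the lower G-CSF value was well above the higher Control value.

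*Mars*, the methionyl-tRNA synthetase gene, rose from 27.3 and 28.9 to 35.8 and 34.9 FPKM (log2 fold change 0.33, adjusted p = 0.0105). Its annotated span on chromosome 10 (127296221 to 127311786, minus strand) overlaps that of *Ddit3* on the other strand, a gene of the amino acid response that moved the other way, but 0.0% of the 75-base windows of *Mars* transcripts occur in transcripts of another gene. Of the remaining enzymes of the complex, *Rars* had a log2 fold change of 0.29 and *Qars* of 0.21, the smallest rise in the complex (adjusted p = 0.033). The scaffold gene *Aimp2*, on chromosome 5, stood at 24.3 and 23.8 FPKM in Control and 32.6 and 29.7 FPKM with G-CSF (log2 fold change 0.37, standard error 0.0636, adjusted p = 0.0116). *Aimp1*, on chromosome 3, stood at 38.4 and 34.5 FPKM in Control and 44.2 and 45.4 FPKM with G-CSF (log2 fold change 0.30, standard error 0.0638, adjusted p = 0.0209). *Aimp2* is uncertain in part, since 25.1% of the windows of its transcripts also occur in other genes, most often *Eif2ak1* on the other strand. The library kit keeps strand information, but whether the authors' counting used it is not given in the sources used here. The third scaffold of the complex, encoded by *Eef1e1*, is not among the 38 genes. It went from 25.9 and 29.0 to 38.9 and 37.9 FPKM, with a log2 fold change of 0.49 (adjusted p = 0.00667).

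Outside the complex, 11 of the 12 cytosolic genes rose, beside the same 12.6% of all genes tested. The median log2 fold change was 0.28, and the range from 0.09 to 0.37 overlapped that of the complex. *Vars*, the valyl-tRNA synthetase gene, had 30.4 and 29.6 FPKM in Control and 38.5 and 38.6 FPKM with G-CSF (log2 fold change 0.36, standard error 0.0493, adjusted p = 0.00643). *Nars* went from 86.6 and 88.1 to 108 and 106 FPKM (log2 fold change 0.30, adjusted p = 0.00716). It held the highest level of the class in every library. Phenylalanyl-tRNA synthetase is built from the products of *Farsa* and *Farsb*, and the pair of genes moved by nearly the same amount. *Farsa* stood at 42.2 and 41.2 FPKM in Control and 51.8 and 54.6 FPKM with G-CSF (log2 fold change 0.35, adjusted p = 0.00724), and the log2 fold change of *Farsb* was 0.36 (adjusted p = 0.0119). *Yars*, for tyrosine, went from 22.3 and 21.3 to 28.6 and 27.8 FPKM (log2 fold change 0.37, adjusted p = 0.00862), and *Tars*, for threonine, from 40.9 and 42.0 to 54.7 and 50.7 FPKM (log2 fold change 0.34, adjusted p = 0.00959). *Hars*, for histidine, stood at 47.8 and 49.0 FPKM in Control and 58.1 and 58.8 FPKM with G-CSF (log2 fold change 0.27, adjusted p = 0.0107). All groups named in this paragraph were separated, with no overlap between Control and G-CSF values.

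The 7 called cytosolic genes not given library by library had adjusted p-values from 0.011 to 0.033, and their mean level rose by 14.7% to 28.8%. The smallest rises outside the complex were those of *Gars* (0.20) and *Aars* (0.21), followed by *Cars* (0.26) and *Wars* (0.27), with adjusted p-values between 0.0202 and 0.0238. Reads of *Aars* may be split, since 13.2% of its windows also belong to *Exosc6* or another gene, and *Exosc6* overlaps it on the same strand. *Sars*, the seryl-tRNA synthetase gene, was the exception in the cytosolic class. It stood at 40.2 and 36.5 FPKM in Control and at 39.9 and 41.4 FPKM with G-CSF, so its groups overlapped. Its log2 fold change of 0.09 had a 95% interval from -0.07 to 0.24 (adjusted p = 0.358), which leaves out changes as large as the median of the class.

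**Figure D2:**
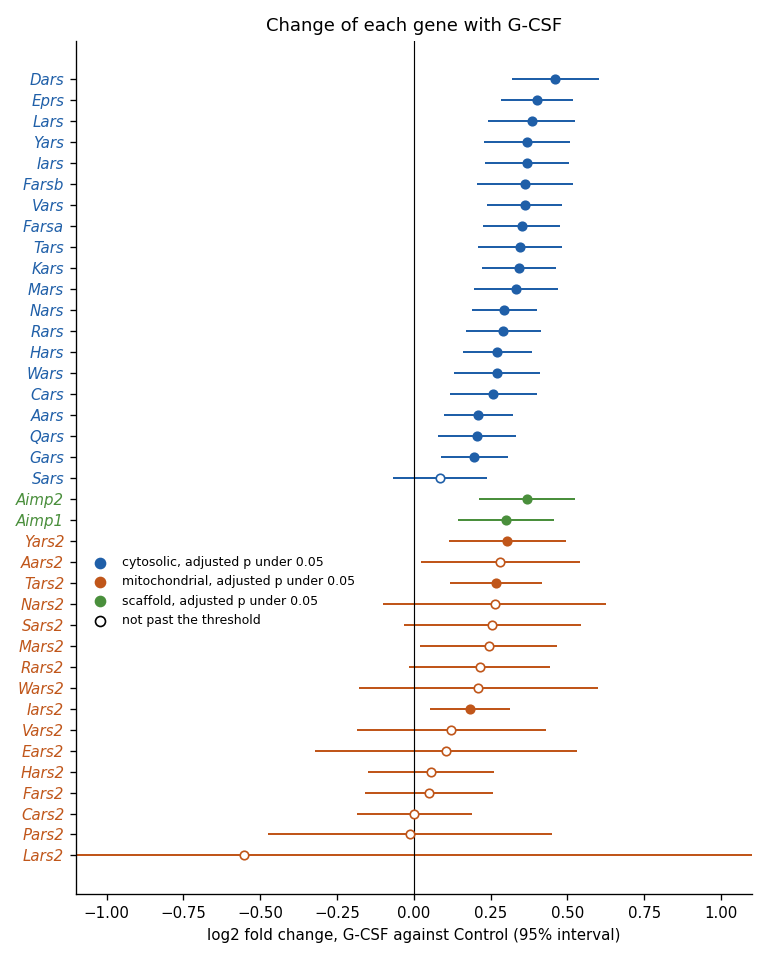
Log2 fold change of each gene between G-CSF and Control (points) with its 95% interval from limma (lines), grouped by class. Filled points passed an adjusted p of 0.05: 19 cytosolic, 2 scaffold and 3 mitochondrial genes. The interval of *Lars2*, from -2.52 to 1.41, runs past both ends of the axis.

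When 1 library at a time was omitted, 14 to 17 of the 20 cytosolic genes were called, and 14 of the 19 were called every time. The lone library left in a group was then assumed to vary like the other group. *Aars*, *Cars*, *Gars*, *Qars* and *Wars*, which had the smallest rises, lost their call in at least 3 of these 4 fits, as did the scaffold gene *Aimp1*. All 19 cytosolic genes kept a positive log2 fold change, between 0.17 and 0.52.

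Promoters of the cytosolic genes were searched for the letters TGATGNAA, the form of the amino acid response element bound by ATF4 with C/EBP factors, on both strands of the RefSeq windows of GRCm38.p6, which run from 250 bases before to 50 bases after a transcript start. A window was on hand for 13 of the 20 cytosolic genes (not for *Cars*, *Hars*, *Lars*, *Nars*, *Rars*, *Vars* and *Wars*), for 14 of the 16 mitochondrial genes (not for *Hars2* and *Pars2*) and for both scaffolds. The letters were found in 5 of the 13 cytosolic genes (38.5%), *Aars*, *Gars*, *Iars*, *Tars* and *Yars*, in 0 of the 14 mitochondrial genes and in 0 of the 2 scaffolds, against 4.51% of 27025 genes with a window. The E-box CACGTG, the same on both strands, was found in 4 of the 13 cytosolic genes (*Aars*, *Farsb*, *Iars* and *Tars*) and in *Ears2* among the mitochondrial genes, against 8.09% of all genes with a window. The windows of the 4 genes with the smallest p that hold TGATGNAA are given because the motif set part of the cytosolic class apart from the mitochondrial class. They read 5′ to 3′ on the strand of the gene, with TGATGNAA or its reverse complement in capitals.
*Iars* promoter, chr13:49681880-49682179, plus strand: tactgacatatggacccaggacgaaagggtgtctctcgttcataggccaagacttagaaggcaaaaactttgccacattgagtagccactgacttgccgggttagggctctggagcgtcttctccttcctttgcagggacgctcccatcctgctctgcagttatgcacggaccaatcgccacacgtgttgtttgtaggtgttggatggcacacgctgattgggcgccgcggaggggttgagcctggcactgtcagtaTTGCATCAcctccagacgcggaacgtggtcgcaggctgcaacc
*Yars* promoter, chr4:129189653-129189952, plus strand: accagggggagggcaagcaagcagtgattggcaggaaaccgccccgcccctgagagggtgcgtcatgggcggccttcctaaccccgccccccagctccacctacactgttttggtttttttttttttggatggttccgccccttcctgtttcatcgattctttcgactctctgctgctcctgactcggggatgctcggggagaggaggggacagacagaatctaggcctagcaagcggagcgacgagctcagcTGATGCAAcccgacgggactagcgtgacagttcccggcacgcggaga
*Tars* promoter, chr15:11399609-11399908, minus strand: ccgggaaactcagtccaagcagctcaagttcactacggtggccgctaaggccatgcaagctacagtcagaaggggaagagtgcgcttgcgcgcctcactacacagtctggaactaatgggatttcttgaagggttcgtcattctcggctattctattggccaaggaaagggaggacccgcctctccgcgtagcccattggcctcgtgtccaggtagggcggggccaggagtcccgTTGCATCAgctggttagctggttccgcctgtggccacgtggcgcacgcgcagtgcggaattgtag
*Aars* promoter, chr8:111033592-111033891, plus strand: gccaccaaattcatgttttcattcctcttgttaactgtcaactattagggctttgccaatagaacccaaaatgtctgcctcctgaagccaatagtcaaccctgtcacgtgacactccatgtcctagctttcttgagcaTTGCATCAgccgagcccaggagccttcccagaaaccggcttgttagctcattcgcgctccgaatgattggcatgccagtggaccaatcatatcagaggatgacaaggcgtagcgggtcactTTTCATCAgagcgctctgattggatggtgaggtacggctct

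In *Iars* the match begins 7 bases after the transcript start and in *Yars* 3 bases after it, while in *Tars* it begins 15 bases before the start. *Aars* holds a pair of matches, beginning 112 bases before and 9 bases after the start, and the *Gars* match begins 30 bases before the start. The match of *Yars* lies on the strand of the gene and the others on the opposite strand, and no match overlaps an E-box. The log2 fold changes of the 5 genes that hold TGATGNAA were 0.20 (*Gars*), 0.21 (*Aars*), 0.34 (*Tars*), 0.37 (*Iars*) and 0.37 (*Yars*), within the range of the 8 cytosolic genes whose windows do not, which ran from 0.09 (*Sars*) to 0.46 (*Dars*). A match of letters is a description of the sequence, and binding was not measured.

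Mitochondrial synthetase genes stood lower. Without *Lars2*, their means over the 4 libraries ran from 1.07 FPKM for *Ears2* to 29.0 FPKM for *Iars2*, and 4 of the 20 cytosolic genes were below the level of *Iars2*. Their fold changes were correspondingly less precise, with standard errors from 0.0528 to 0.191 without *Lars2*, against 0.0421 to 0.0636 in the cytosolic class. *Tars2*, for mitochondrial threonyl-tRNA, had 14.3 and 14.4 FPKM in Control and 17.1 and 17.4 FPKM with G-CSF (log2 fold change 0.27, standard error 0.061, adjusted p = 0.0251). *Yars2*, for tyrosine, had 10.9 and 12.1 FPKM in Control and 14.1 and 14.4 FPKM with G-CSF (log2 fold change 0.30, standard error 0.0776, adjusted p = 0.0344). *Iars2*, for isoleucine, had 26.9 and 27.4 FPKM in Control and 30.2 and 31.4 FPKM with G-CSF (log2 fold change 0.18, standard error 0.0528, adjusted p = 0.0485). The groups of these 3 genes did not overlap. *Iars2* is uncertain in part, since 22.1% of the windows of its transcripts also occur in other genes, mainly *Rab3gap2* on the other strand.

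The other 13 mitochondrial genes did not pass, and 8 of them had both G-CSF values above both Control values, beside 33.7% of all genes tested. *Aars2* (3.52 and 3.59 FPKM in Control against 4.32 and 4.36 FPKM) and *Mars2* (5.91 and 6.01 against 6.82 and 7.35 FPKM) came nearest, with log2 fold changes of 0.28 and 0.24 and adjusted p-values of 0.0992 and 0.0983. *Cars2*, *Fars2* and *Hars2* were close to level, with log2 fold changes of 0.00, 0.05 and 0.06 and 95% intervals that ended at 0.19, 0.26 and 0.26, below the cytosolic median of 0.34. For *Nars2*, *Wars2* and *Ears2*, at 2.49 FPKM or less in every library, the intervals ended at 0.62, 0.60 and 0.53, so that changes as large as those of the cytosolic genes lay within them. *Rars2*, *Sars2* and *Vars2* had log2 fold changes of 0.21, 0.26 and 0.12 with adjusted p-values of 0.145, 0.164 and 0.513. *Pars2* had 2.33 and 2.79 FPKM in Control and 2.14 and 2.97 FPKM with G-CSF, with overlapping groups and a log2 fold change of -0.01. The 3 mitochondrial calls were near the threshold, and most were lost when a library was left out. Without Control replicate 2 only *Yars2* was called, and without Control replicate 1, G-CSF replicate 1 or G-CSF replicate 2, 0 of the 16 were, where the full fit had 5 of 16 at an unadjusted p under 0.05 and voom called 4. The log2 fold changes kept their direction in these fits, from 0.26 to 0.28 for *Tars2*, from 0.16 to 0.21 for *Iars2* and from 0.23 to 0.38 for *Yars2*.

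**Figure D3:**
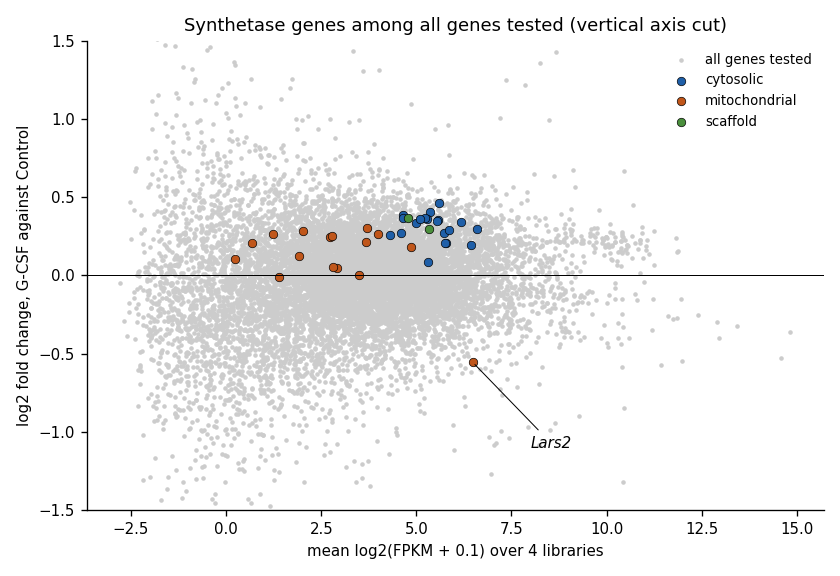
Log2 fold change between G-CSF and Control against the mean log2(FPKM + 0.1) over the 4 libraries, for all 11952 genes tested (grey, the vertical axis cut) and the 38 genes by class. Cytosolic genes gather to the right of most mitochondrial genes and all lie above 0, and *Lars2* lies below 0 at -0.55.

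*Lars2*, the mitochondrial leucyl-tRNA synthetase gene on chromosome 9 (123366927 to 123462666, plus strand), stood apart from every other gene of the group and was singled out after its values were seen. It had 52.5 and 222 FPKM in Control and 35.6 and 152 FPKM with G-CSF. Both libraries numbered 2 were thus about as far above those numbered 1, 4.22 times in Control and 4.26 times with G-CSF. Averaged over both groups, this difference between replicate numbers was 2.08 on the log2 scale, the 7th largest in size of 11952 genes, while the largest among the other 37 genes was 0.35 (*Pars2*). The row *Rn45s*, named for the precursor of ribosomal RNA, moved in the same way, at 227 and 911 FPKM in Control and 142 and 603 FPKM with G-CSF. The *Lars2* value was 23.1% and 24.3% of the *Rn45s* value in Control and 25.0% and 25.1% with G-CSF, nearly constant while both rows varied more than 4-fold within each group. *Rmrp* and *Rpph1*, the RNA components of the ribonucleases MRP and P, were also higher in replicate 2 than in replicate 1 of both groups. They were named after their values were seen, and the part of these RNAs in the *Lars2* value was not tested. None of the windows of *Lars2* transcripts (0.0%) occurs in an annotated transcript of another gene, and the sequence of *Rn45s* was not compared here. The log2 fold change of *Lars2* was -0.55 with a standard error of 0.818 (adjusted p = 0.654), and it turned to 0.48 without Control replicate 2 and to 0.49 without G-CSF replicate 1. Between libraries of the same number it was -0.56 for replicate 1 and -0.55 for replicate 2, beside -0.68 and -0.59 for *Rn45s*. With the replicate number as a block, *Lars2* was called lower (standard error 0.0421, adjusted p = 0.00013, limma). Without *Lars2*, the median log2 fold change of the mitochondrial class was 0.21, and the summed level was 116 and 117 FPKM in Control and 130.0 and 134 FPKM with G-CSF. With *Lars2*, the sums were 168 and 338 against 166 and 286 FPKM and followed the replicate number.

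**Figure D4:**
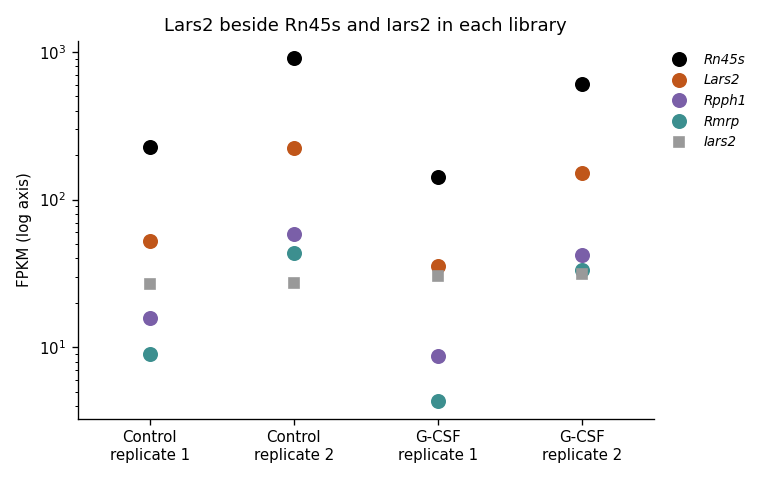
FPKM (log axis) of *Lars2*, *Rn45s*, *Rpph1*, *Rmrp* and, for comparison, *Iars2* in each of the 4 libraries. The first 4 rows are higher in replicate 2 than in replicate 1 of both groups, with *Lars2* at 23.1% to 25.1% of *Rn45s*, while *Iars2* stays between 26.9 and 31.4 FPKM.

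To set the compartments side by side, each cytosolic gene was paired with the mitochondrial gene for the same amino acid, which gave 17 pairs (*Farsa* and *Farsb* share *Fars2*, and *Eprs* is paired with both *Ears2* and *Pars2*). In 15 of the 17 the log2 fold change of the cytosolic gene was the larger, the exceptions being *Aars* with *Aars2* and *Sars* with *Sars2*. The cytosolic level exceeded the mitochondrial level in all pairs but that of *Lars* with *Lars2*, by a mean ratio from 1.28 for *Iars* to *Iars2* to 43.4 for *Nars* to *Nars2*, with a median of 6.13 without *Lars2*. In 8 pairs the ratio was higher in both G-CSF libraries than in both Control libraries, and these include the pairs that share *Fars2* or *Eprs*. The share among other pairs of genes was not computed. Of single genes tested, 33.7% had both G-CSF values above both Control values and 32.6% had both below. *Eprs* to *Ears2* went from 35.6 and 33.1 to 42.4 and 41.4, and *Farsa* to *Fars2* from 5.89 and 5.61 to 7.10 and 7.06. The ratio was lower in 2 pairs (*Aars* to *Aars2*, 14.3 and 14.1 against 13.7 and 13.2, and *Sars* to *Sars2*, 5.89 and 6.52 against 5.57 and 5.42), and the groups overlapped in 7. Without *Lars2*, the mean log2 level of the cytosolic class exceeded that of the mitochondrial class by 2.82 and 2.77 in Control and by 2.98 and 2.89 with G-CSF. This difference between the classes is a description: an exact two-sided permutation test of 2 against 2 libraries cannot give a p below 0.333, and none was run.

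A further 14 genes of tRNA charging and its quality control were followed, of which 4 rose and 0 fell, with a median log2 fold change of 0.25 (12.6% of all genes tested were called higher and 11.4% lower). *Eef1e1* was described above. *Xpot*, which encodes the nuclear export receptor of tRNA, had 18.6 and 18.6 FPKM in Control and 23.7 and 24.0 FPKM with G-CSF (log2 fold change 0.36, adjusted p = 0.00867). *Dtd1*, for an enzyme that removes D-amino acids from tRNA, went from 5.41 and 5.83 to 9.71 and 8.15 FPKM (log2 fold change 0.65, adjusted p = 0.0115). The fourth was *Aarsd1* (0.29, adjusted p = 0.0119), whose product clears mischarged tRNA, named after its value was seen. The 10 that did not pass included *Gatc*, *Qrsl1* and *Gatb*, subunits of the mitochondrial enzyme that makes glutaminyl-tRNA. Their log2 fold changes were 0.02, 0.00 and 0.20. In *Gatc* and *Gatb* both G-CSF values lay above both Control values, as in 33.7% of all genes tested. They were also named after their values were seen.

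Elongation factors take charged tRNA to the ribosome or move it along. Of 9 such genes, 5 rose and 0 fell, with a median log2 fold change of 0.24, where 12.6% of all genes were higher and 11.4% lower. *Eef1d* (78.4 and 82.0 FPKM in Control against 103 and 111 FPKM, log2 fold change 0.41, adjusted p = 0.00573), *Eef1g* (0.27, adjusted p = 0.0106) and *Eef1b2* (0.24, adjusted p = 0.0114) encode subunits of the exchange factor of the cytosolic elongation factor, with which valyl-tRNA synthetase is associated. The list of elongation factors also held mitochondrial ones, named after their values were seen. *Tsfm* was called higher (0.30, adjusted p = 0.0269, limma). *Gfm1*, *Tufm* and *Gfm2*, with log2 fold changes of 0.28, 0.23 and 0.14, were not called. In a list of 12 genes of the amino acid response, 5 were higher, 3 lower and 4 not called. Of all genes tested, 12.6% were higher and 11.4% lower. *Psat1* and *Phgdh*, enzymes of serine synthesis, had log2 fold changes of 0.52 and 0.57 (adjusted p = 0.00229 and 0.00812), and *Slc7a5*, an amino acid transporter, of 0.41 (adjusted p = 0.00991). *Atf4* itself stood at 231 and 222 FPKM in Control and 273 and 266 FPKM with G-CSF (log2 fold change 0.25, adjusted p = 0.0116), and *Asns*, for asparagine synthetase, had a log2 fold change of 0.50 (adjusted p = 0.0128). The 3 that fell were *Ddit3* (-0.37, adjusted p = 0.0446), *Sesn2* (-0.31, adjusted p = 0.0145) and *Slc7a11* (-0.37, adjusted p = 0.0312). *Atf4*, *Asns* and these 3 genes were named after their values were seen.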

How the data were processed

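RNA was sequenced from 2 Control and 2 G-CSF cultures as stranded mRNA libraries with single-end reads of 75 bases. For each library the authors deposited FPKM per gene. The unit was read from the values and from Cufflinks 2.2.1, which the submitters' processing notes list with TopHat2 2.0.13, Bowtie2 2.2.3, SAMtools 0.1.19 and the mm10 build. The annotation is not given in the sources used here. FPKM were divided by library size before deposit, so very abundant genes bear on every value.

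Lengths and positions came from GENCODE M21 (GRCm38), in which 23962 of 24346 gene names were found. Reads were estimated from FPKM, the mean transcript length less 210 bases, and the depth at which low values of genes with 1 transcript fell on whole reads (65.3% to 70.7% within 0.05 reads). The test took in genes estimated at 10 or more reads in any 2 libraries and 15 or more summed over all 4, without 1311 short or small RNA genes. limma 3.58.1 (lmFit, eBayes with trend, two-sided, R 4.3.3) compared G-CSF with Control on log2(FPKM + 0.1) without a replicate block, with Benjamini-Hochberg adjustment over 11952 genes. Fold changes on this scale understate those of low genes.

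Alternatives were other pseudocounts, filters, scalings and thresholds, voom, the replicate block, and the omission of 1 library at a time. The genes, lists and motifs were chosen with earlier results of these data known. Values per library were to be given for the 12 cytosolic and 8 mitochondrial genes with the smallest p among those called, and for both scaffolds, and at most 3 genes of each other list were to be named, with *Eef1e1*. Shared windows are 75-base stretches of a gene's transcripts found, on either strand, in transcripts of another gene. Protein sequences were not used here, so the planned comparison of protein pairs was not run. No table of the authors' own comparisons was used. A gene of the other lists is not reported here, and its list was counted without it, a change made after the list had been tested.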

Additional observations from a re-analysis of the deposited data

How the results depend on the processing

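All 19 called cytosolic genes stayed called with pseudocounts of 1 and 0.01 FPKM, at least 1 FPKM in every library, upper-quartile and median-ratio scaling, voom and the replicate block; without a filter 18 did, with 1 mitochondrial gene and 1 scaffold gene (1626 genes in all, 882 higher and 744 lower, against 2875, 1509 and 1366). At an adjusted p under 0.01, 10 cytosolic, 0 mitochondrial, 0 scaffold and 2 other charging genes were called, of 737 genes (379 higher, 358 lower). With a fold change over 2 as well, each class and the other charging genes had 0, of 172 genes (65 higher, 107 lower). Upper-quartile scaling turned the split of all calls to 1302 higher and 1554 lower.

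With a library left out, the ranges were 1462 to 1882 genes called (742 to 889 higher, 662 to 999 lower), 14 to 17 cytosolic, 0 to 1 mitochondrial and 1 to 2 scaffold genes. The cytosolic median ranged from 0.29 to 0.33, the mitochondrial median from 0.13 to 0.22 and their difference from 0.0704 (without G-CSF replicate 1) to 0.17. Directions turned for *Cars2* (-0.0029 with median-ratio and -0.0205 with upper-quartile scaling, -0.0544 to 0.0581 with a library left out), *Pars2* (0.0255 with voom, -0.24 to 0.21) and *Lars2* (-1.60 to 0.49); the cause was not tested.

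Deviations from the group means were correlated between libraries of the same number (r = 0.261 across genes), but the labels do not say what a number marks. With the replicate block, 4001 genes and 5 mitochondrial genes were called: *Rars2* was added as higher and *Lars2* as lower (log2 fold change -0.55, adjusted p = 0.00013, limma). The block changed no other call among the 38 genes. *Mars2* was added with voom, and *Iars2* was lost under upper-quartile and median-ratio scaling, which left 2 mitochondrial genes called. The median without *Lars2*, added after seeing the data, was 0.21 against 0.20. The lowest of the 38 genes had 24 estimated reads in a library, which limits its precision, and 2 libraries a group leave the spread between replicates poorly known.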
